A study of Mus musculus with 4 samples.

Results

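RAS GTPase-activating proteins (RasGAPs) were described in cultured mouse lung fibroblasts of a KrasD12 line and a wild-type line. 7 genes were chosen by name, Nf1, Rasa1, Rasa2, Rasa3, Rasal1, Rasal2 and Dab2ip, out of 19938 genes measured. Each was represented by the only row of the array that the platform annotation pairs with that symbol alone. All 7 lay above the dim level of the arrays in both groups, 5.15 on the log2 scale, which is the 95th percentile of the mean values of olfactory and vomeronasal receptor rows.

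Gene expression was measured on 4 Affymetrix arrays of total RNA. The line labelled KrasD12 (number 493 in the titles, also named SKY in the design text) gave 2 samples, and the wild-type (WT) line (number 494) gave 2 more, called A and B in each case. The design text names the mutant genotype K-RasG12D, a G12D change of the protein. The lines were grown out of collagenase-digested lungs of mice aged 3 to 4 weeks and received no treatment. The comparison asked which transcripts differ between KrasD12 and WT fibroblasts. How the allele is driven is not given in the sources used here, and with 1 line per genotype the genotype and the line cannot be told apart. Nothing says that A and B are separate cultures, so the p-values measure only the spread between these samples, which may be technical.

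RAS proteins are switches that are active when bound to GTP. RasGAPs insert an arginine into the active site of RAS and speed the hydrolysis of GTP, which turns the switch off, while exchange factors load RAS with GTP and turn it on. Some RasGAPs also act on the related RAP proteins.

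The fibroblast identity of the samples was checked first. All 9 fibroblast markers lay above the dim level in the mean over samples, with a mean level of 11.0 to 11.1 in KrasD12 and 11.2 in WT. Of the markers of other cell types, 4 of 8 epithelial, 4 of 6 endothelial, 4 of 7 leukocyte and 1 of 4 mesothelial genes lay at or below it, Epcam, Pecam1 and Ptprc among them. Krt8, Nkx2-1 and Cd68 were among those above it in both groups. By the rule for calls given below, 1 fibroblast marker rose (Pdgfra, 0.26 as deposited, but -0.085 and not called with columns centred on their medians). In that list 3 fell: Col1a1, Pdgfrb and Thy1, at -0.595, -0.495 and -0.31. Among the markers of other cell types, 1 epithelial and 2 leukocyte markers rose, 1 leukocyte marker fell, and no endothelial or mesothelial marker passed. The 3 of other cell types that rose, Sftpc, Adgre1 and Cd79a, all had means over the 4 samples below the dim level. The KrasD12 mean of Sftpc, 5.265, lay above that level and its WT mean, 4.345, below it. On the deposited values the summed log2 levels ran from 42.7 to 43.2 in KrasD12 and 39.5 to 39.6 in WT for the epithelial list, 31.7 to 31.9 and 29.8 to 30.5 for the endothelial list, 35.1 to 35.5 and 32.1 to 32.3 for the leukocyte list, and 23.1 to 23.4 and 22.3 to 22.5 for the mesothelial list. The median differences of these lists were 0.445, 0.30, 0.625 and 0.33 on that scale, where the median of all genes was 0.26, and 0.09, -0.11, 0.26 and -0.05 after quantile normalization, so the endothelial and mesothelial lists turned direction. The 5 myofibroblast markers Acta2, Tagln, Cnn1, Myh11 and Actg2 all fell in KrasD12, with summed log2 levels of 36.2 to 36.9 against 44.5 to 45.2 in WT. The part of these markers in the differences of the RasGAP genes was not tested. In bulk RNA, fewer cells of a type and less RNA per cell cannot be told apart.

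The deposited columns did not share 1 distribution, and their medians lay at 5.90 and 5.91 for the WT samples against 6.24 and 6.26 for the KrasD12 samples. Each difference is therefore given as KrasD12 minus WT on the deposited log2 values, with limma's moderated SE (n = 2 per group), and again after quantile normalization of the 4 columns. "Rose" and "fell" are used below where limma's Benjamini-Hochberg adjusted p over all genes was under 0.05 in the same direction on both scalings. Of all genes, 22.4% rose and 11.5% fell by this rule, 33.9% in all. Of the 7 RasGAP genes, 3 rose (Nf1, Rasa1 and Dab2ip), 1 fell (Rasal2) and 3 did not pass (Rasa2, Rasa3 and Rasal1). The share of genes passing was larger among brighter genes, from 35.5% to 54.9% in the bins of 1 log2 unit of mean expression that hold the members, so 4 of 7 is close to that background. As deposited, 4 members were called higher (50.1% of all genes) and 1 lower (11.9%), and after quantile normalization 3 higher (22.5%) and 1 lower (24.4%). The 7 genes had a median difference of 0.365 as deposited and 0.03 (0.0287) on the quantile scale, against 0.26 and 0.00 (-0.0038) over all genes tested.

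**Figure D1:**
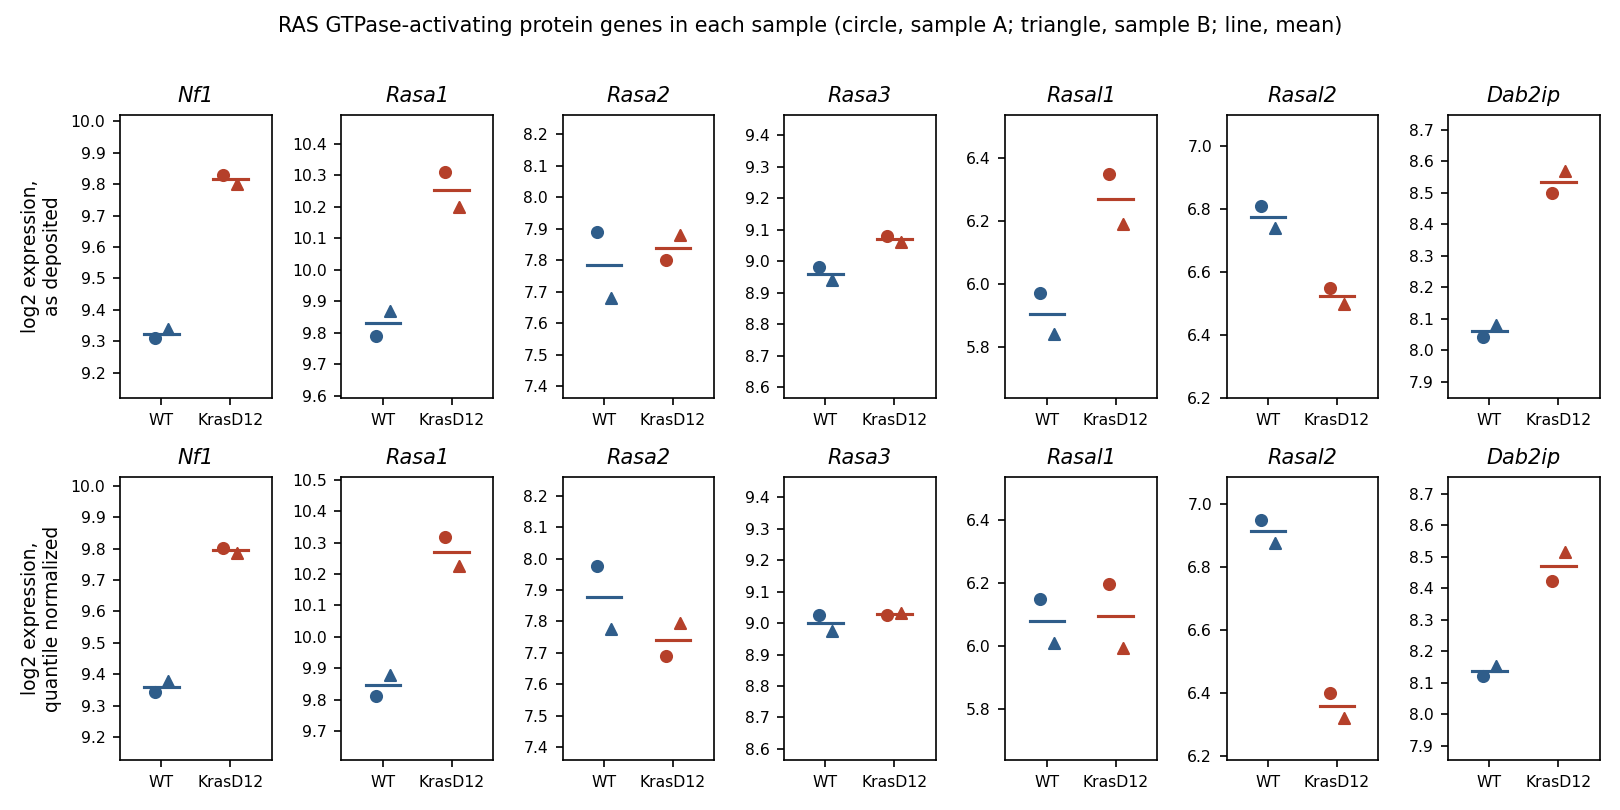
Log2 expression of the 7 RasGAP genes (vertical axis, each panel spanning the same range around its own mean) in WT (blue) and KrasD12 (red) samples, as deposited (top row) and after quantile normalization (bottom row), with circles for sample A, triangles for sample B and lines for the group means. Nf1, Rasa1 and Dab2ip lay higher in both KrasD12 samples in both rows and Rasal2 lower, while the groups overlapped for Rasa2 in both rows and overlapped or touched for Rasal1 and Rasa3 in the bottom row.

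The starting regions of the genes are shown because Nf1, Rasa1 and Dab2ip rose by similar amounts while Rasal2 fell. Windows of 250 bases before an annotated start were taken from RefSeq (GRCm38.p6) for 6 of the 7 genes, with 1 window each except for Dab2ip, which had 4. The letters CCGGAAG, the core recognised by ETS-family transcription factors with 3 further bases, were searched on both strands after the sequences had been seen. They occurred in 1 place each before Nf1 and Rasa1, in no window of Rasa2, Rasa3, Rasal2 or Dab2ip, and in 6.91% of 32851 windows of the same length. That share is not over windows of like composition. The Nf1 and Rasa1 windows held 74.0% and 68.8% G and C, against a median of 52.4% over all windows. Dab2ip rose without them, so the letters were not shared by all members that rose. The 27 bases around each match follow, 5′ to 3′ on the strand of the gene, with the match in capitals.
Nf1, chr11:79339665-79339691, plus strand: aaggatcccaCTTCCGGtggggtgtca
Rasa1, chr13:85289525-85289551, minus strand: ggacgcgctcCCGGAAGgcgcctgcgc
The match begins 217 bases before the start used for Nf1, inside the span that RefSeq gives the gene (from 79339590), and 55 bases before that of Rasa1. A match in these letters is a description and not a binding site.

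The whole windows of Rasa1, which rose, and Rasal2, which fell, are given for comparison, with the same letters in capitals.
Rasa1, chr13:85289487-85289736, minus strand: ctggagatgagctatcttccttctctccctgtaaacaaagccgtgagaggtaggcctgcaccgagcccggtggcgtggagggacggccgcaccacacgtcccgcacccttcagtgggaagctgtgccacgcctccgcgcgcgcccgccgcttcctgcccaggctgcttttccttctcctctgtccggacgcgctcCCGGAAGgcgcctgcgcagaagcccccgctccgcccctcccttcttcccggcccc
Rasal2, chr1:157412596-157412845, minus strand: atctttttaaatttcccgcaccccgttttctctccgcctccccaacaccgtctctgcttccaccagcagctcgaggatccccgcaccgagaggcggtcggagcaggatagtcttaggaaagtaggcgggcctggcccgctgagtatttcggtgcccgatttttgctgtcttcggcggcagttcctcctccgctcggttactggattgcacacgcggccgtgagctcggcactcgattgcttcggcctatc
Both are rich in G and C, at 68.8% for Rasa1 and 59.6% for Rasal2 against a median of 52.4% over all windows, with 24 and 23 CpG pairs against a median of 6. The AP-1 type letters TGACTCA or TGAGTCA, found in 4.46% of all windows on either strand, were in none of the members' windows. The GC box letters GGGCGG, in 32.7% of all windows, occurred before Rasa1, Rasa2, Rasa3 and at 3 of the 4 Dab2ip starts, and not before Nf1 or Rasal2.

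Nf1 encodes neurofibromin, a large RasGAP whose loss in the germ line causes neurofibromatosis and which SPRED proteins bring to the membrane. It read 9.83 and 9.80 in KrasD12 A and B and 9.31 and 9.34 in WT A and B. Both KrasD12 samples lay above both WT samples by far more than the samples of a group differed from each other. The rise was 0.49 ± 0.07 (1.40-fold, 95% interval 0.32 to 0.66, limma adjusted p = 0.0026), and 0.43 after quantile normalization (adjusted p = 0.00394). Genes of like mean, between 9 and 10, had a median deposited difference of 0.065.

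Rasa1 encodes the RasGAP with SH2 domains that binds activated receptor tyrosine kinases and is needed for normal blood vessel growth. Its values were 10.3 and 10.2 in KrasD12 and 9.79 and 9.87 in WT, again without overlap of the groups. The rise was 0.425 ± 0.08 (1.34-fold, limma adjusted p = 0.00625), and 0.42 after quantile normalization (adjusted p = 0.00564), while genes with a mean between 10 and 11 had a median deposited difference of -0.045. Dab2ip, a RasGAP of the SynGAP family that also serves as a scaffold in cytokine signalling, read 8.50 and 8.57 in KrasD12 and 8.04 and 8.08 in WT. It rose by 0.475 ± 0.07 (1.39-fold, limma adjusted p = 0.00323) and by 0.33 after quantile normalization (adjusted p = 0.0127), with a median deposited difference of 0.14 among genes of like mean. The 95% intervals of the 3 rises overlapped, so their order is not fixed.

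Rasal2, another RasGAP of the SynGAP family, was the 1 member that fell. It read 6.55 and 6.50 in KrasD12 and 6.81 and 6.74 in WT, so both KrasD12 samples lay below both WT samples. The deposited difference was -0.25 ± 0.07 (1.19-fold lower, limma adjusted p = 0.0258), and quantile normalization widened it to -0.55 (adjusted p = 0.00211), more than 1.5 times the deposited size. Genes of like mean, between 6 and 7, had a median deposited difference of 0.315, so Rasal2 moved against the shift of genes at its level. In that bin of 2673 genes, 12.01% fell by the rule above.

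Rasal1, a RasGAP recruited to the membrane by calcium, showed how far the scaling matters at lower levels. It read 6.35 and 6.19 in KrasD12 and 5.97 and 5.84 in WT, without overlap, and was called higher on the deposited values (0.365 ± 0.09, limma adjusted p = 0.0175). After quantile normalization the samples read 6.20 and 5.99 in KrasD12 and 6.15 and 6.01 in WT, the groups overlapped, and the difference was 0.015 (95% interval -0.22 to 0.25, adjusted p = 0.912). Its deposited difference lay near the median of genes of like mean, 0.315.

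Rasa2 and Rasa3, RasGAPs that bind membrane phosphoinositides or inositol phosphates, did not pass on either scaling. Rasa2 read 7.80 and 7.88 in KrasD12 and 7.89 and 7.68 in WT, with the widest gap between samples A and B of any member (0.21 in WT). Its difference was 0.055 (95% interval -0.18 to 0.29) as deposited and -0.13 (-0.36 to 0.09) after quantile normalization. Rasa3, which also acts on RAP proteins, read 9.08 and 9.06 in KrasD12 and 8.98 and 8.94 in WT. Its difference was 0.11 (95% interval -0.06 to 0.28) and 0.03 (-0.14 to 0.20). On the deposited values the groups did not overlap for 6 of the 7 members, but this held for 83.0% of all genes. After quantile normalization it held for 4 of the 7 and for 75.1% of all genes.

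**Figure D2:**
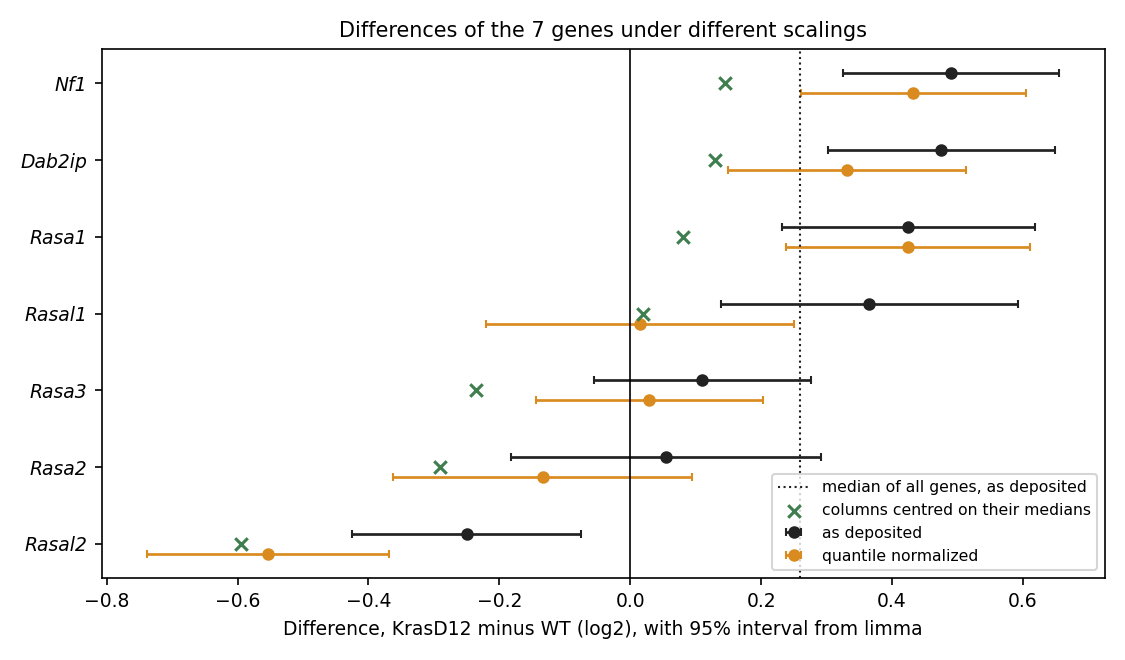
Difference KrasD12 minus WT (log2, horizontal axis) of each RasGAP gene, with limma's 95% interval, on the deposited values (black) and after quantile normalization (orange), and as a point without interval after centring each column on its median (green crosses). The dotted line marks the median deposited difference of all genes, 0.26. Rasal2 lies below 0 throughout and Nf1, Dab2ip and Rasa1 above it, with crosses at 0.13 to 0.145 for Nf1 and Dab2ip and 0.08 for Rasa1.

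2 limits bear on these calls. Centring each column on its median, which takes 0.345 off every difference, ended the calls of Nf1 (0.145, limma adjusted p = 0.138), Rasa1 (0.08, adjusted p = 0.444) and Dab2ip (0.13, adjusted p = 0.178) and called Rasa2 and Rasa3 lower (-0.29 and -0.235, adjusted p = 0.0429 and 0.0353), while Rasal2 was lower at -0.595. On that scale 0 of 7 members were called higher and 3 lower, against 17.9% and 33.4% of all genes. Without sample A or B of the WT line, the limma fit to the deposited values called 0 of 19938 genes (9846 and 10022 had an unadjusted p under 0.05), and without either KrasD12 sample it called Nf1 and Dab2ip and no other member.

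**Figure D3:**
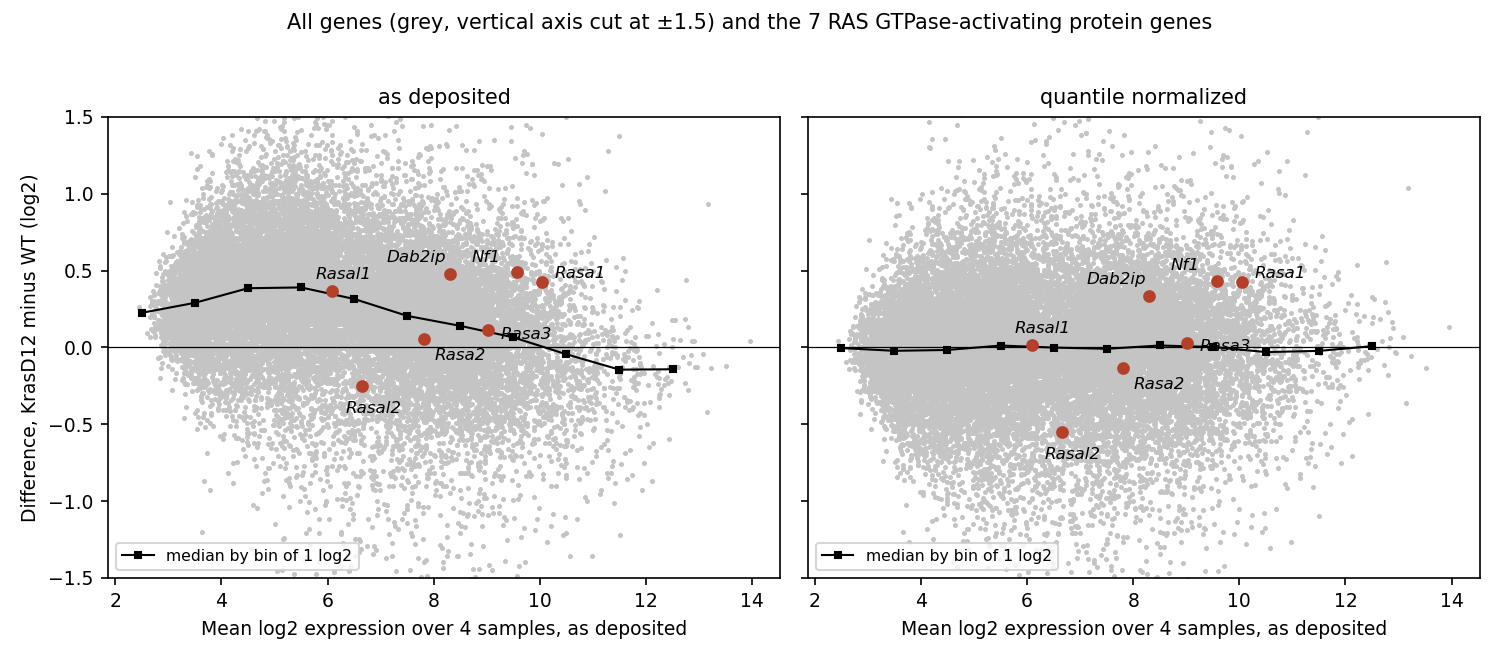
Difference KrasD12 minus WT (log2) of all genes (grey) against their mean deposited log2 expression, as deposited (left) and after quantile normalization (right), with the 7 RasGAP genes in red and the median of each bin of 1 log2 unit as black squares. The vertical axis is cut at ±1.5. On the left the bin medians peak at 0.39 (means between 5 and 6) and reach -0.145 between 11 and 12, and Rasal1 lies on that line, Nf1, Rasa1 and Dab2ip above it and Rasal2 below it.

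Other genes of the RAS switch were set beside the 7 from lists chosen with earlier results of these data known. The list counts below stand against 22.4% of all genes rising and 11.5% falling by the same rule, and were not tested. The share passing was larger among brighter genes, so these percentages are not matched to the level of each list. Among 6 measured relatives that carry a RasGAP-like domain, 2 rose and 0 fell. Iqgap2, a cytoskeletal scaffold whose domain lacks RasGAP activity, rose by 0.925 ± 0.09 (0.56 after quantile normalization) and Rasa4, a calcium-dependent RasGAP, by 0.46 ± 0.07 (0.22). The call of Rasa4 ended with centring (0.115).

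Of the 9 proteins that bind or recruit RasGAPs, 6 rose and 1 fell. Among those that rose, Dok2, named after its values were seen, had a WT mean of 5.045, below the dim level. The recruiters of neurofibromin moved most: Spred1 read 10.3 and 10.2 in KrasD12 against 9.07 and 9.06 in WT and rose by 1.20 ± 0.07, Spred2 by 0.965 ± 0.07 and Spred3 by 0.855 ± 0.07, with 1.17, 0.90 and 0.64 after quantile normalization. These 3 differences were larger than that of Nf1 itself on both scalings, a comparison of sizes that was not tested. Pdgfrb, a receptor tyrosine kinase that binds the product of Rasa1 and the 1 gene of the list that fell, is named after its values were seen (-0.495 ± 0.07, and -0.44 after quantile normalization). The list median was 0.355 deposited and 0.28 quantile normalized, against 0.26 and 0.00 (-0.0038) over all genes.

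The RAS exchange factors, which oppose RasGAPs, went both ways, with 2 of 8 rising and 1 falling. In the mean over samples, 3 of the 8 lay below the dim level. Rasgrp3, an exchange factor that responds to diacylglycerol, fell by 1.085 ± 0.10 (1.40 quantile normalized), from 7.13 and 6.93 in WT to 6.01 and 5.88 in KrasD12. Rasgrf1, a calcium-responsive exchange factor, rose by 0.945 ± 0.08 and Sos2, which couples growth factor receptors to RAS, by 0.645 ± 0.09, or 0.55 and 0.48 after quantile normalization. The 2 WT values of Rasgrf1, 4.85 and 4.79, lay below the dim level, so the size of its rise is not well measured.

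Of the 9 measured RAS and RAP GTPases on which RasGAPs or RAP GAPs act, 0 rose and 2 fell. The mean level of this list lay between 9 and 10, a bin in which 23.06% of genes fell. Rap1a, a close relative of RAS that controls cell adhesion, read 8.52 and 8.43 in KrasD12 and 9.47 and 9.66 in WT and fell by 1.09 ± 0.09, and by 1.19 after quantile normalization (limma adjusted p = 0.000876 and 0.000251). Rap1b fell by 0.66 ± 0.08, or 0.64 after quantile normalization. Over the same samples 3 of 6 GAPs of the RAP proteins rose and 0 fell: Rap1gap by 1.04 ± 0.15, Sipa1l3 by 0.92 ± 0.07 and Sipa1l2 by 0.435 ± 0.06, with 0.73, 0.84 and 0.21 after quantile normalization. The call of Sipa1l2 ended with centring (0.09) and with cyclic loess normalization (0.20, limma adjusted p = 0.0574).

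Of 10 feedback and target genes of the RAS-MAPK cascade, 8 rose and 1, Ier3, fell (-0.355 ± 0.11). These are RNA levels, and the activity of the cascade was not measured. Dusp6 and Dusp4 encode enzymes that switch off MAP kinases and rose by 1.70 ± 0.07 and 1.325 ± 0.07, and the ETS-family factor Etv5 rose by 1.685 ± 0.07. Etv5 and Spred2 had 2 rows each, and the values given are those of the brighter row alone. The median of this list was 0.72 deposited and 0.64 quantile normalized, while the differences of the 7 RasGAP genes ran from -0.25 to 0.49 deposited and from -0.55 to 0.43 quantile normalized. These list counts depend on the scaling: with columns centred on their medians, limma called 1 relative higher and 4 lower, 4 partners higher and 3 lower, 2 exchange factors higher and 4 lower, 0 GTPases higher and 6 lower, 2 RAP GAPs higher and 2 lower, and 6 feedback genes higher and 1 lower. Of all genes, 17.9% were called higher and 33.4% lower on that scale. Each gene named from these RAS pathway lists kept its sign.

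**Figure D4:**
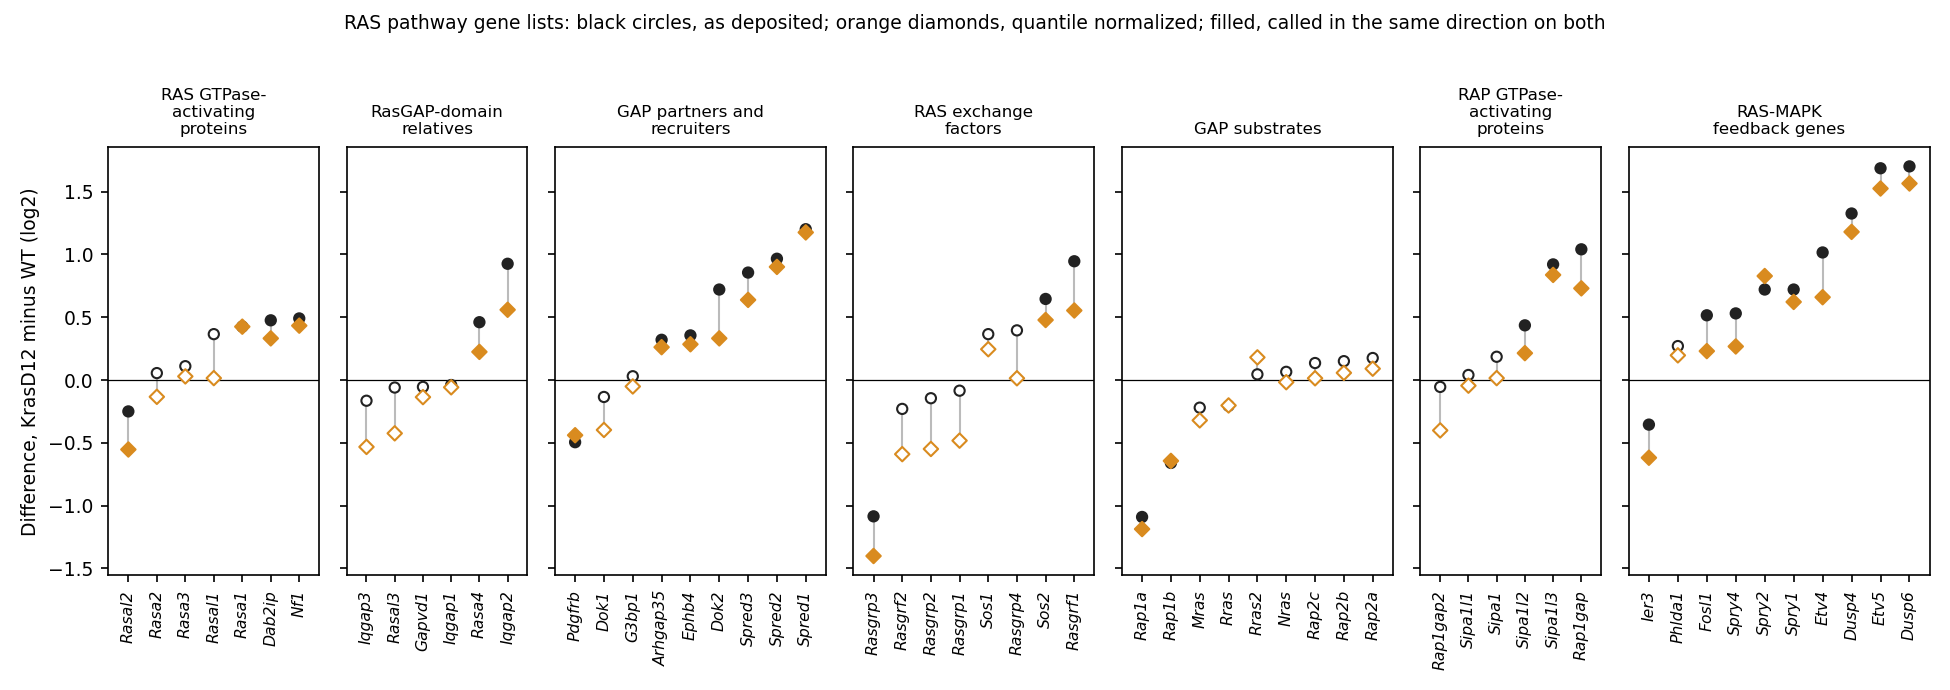
Difference KrasD12 minus WT (log2, vertical axis) of each gene of the RasGAP set and of 6 related lists, as deposited (black circles) and after quantile normalization (orange diamonds), with filled symbols for genes called in the same direction on both. The RasGAP genes lie between -0.55 and 0.49, the Spred genes between 0.64 and 1.20, and Rap1a and Rap1b between -1.19 and -0.64.

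The genes whose 4 deposited values, centred on the gene's own mean, lay closest to those of Nf1 among 13823 other genes above the dim level were Lamtor1, C130021I20Rik and Rc3h1, at Euclidean distances of 0.00866 to 0.0141. Their deposited differences were 0.485 to 0.50, yet after quantile normalization C130021I20Rik stood at 0.10 against 0.39 for Lamtor1 and 0.425 for Rc3h1. For Rasal2 the closest were Rngtt, Kpna1 and Wdr43, at distances of 0.01 to 0.0141 and deposited differences of -0.25 to -0.26. After quantile normalization these stood at -0.475, -0.41 and -0.34, against -0.55 for Rasal2. These likenesses rest on 4 samples in 2 groups.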

How the data were processed

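The authors deposited a table of log2 expression values, and per the submitters' processing notes the Transcriptome Analysis Console was used. Its version and the background correction and scaling it applied are not stated in the labels, and the log2 scale was read from the values. Of 28944 rows, 21789 have exactly 1 gene symbol in the platform annotation, 1621 several and 5534 none. The row with the highest mean stood for a gene, which left 19938 genes. The tests came from limma (version 3.58.1, run in R 4.3.3) by lmFit and eBayes over all 4 samples with a term for the group. They were two-sided. The fit was checked on simulated data with few changed genes and no shift between columns. That check does not bear on calls that depend on the scaling. Quantile, cyclic loess and median scalings were made over all rows. The number of arrays limits the precision, as 4 samples leave 2 residual degrees of freedom. The groups, tests, lists, alternatives and the rule for named genes (the 7 members, of each list up to 3 genes that passed on both scalings with the largest differences, and the 3 closest profiles of the member with the largest rise and fall) were written down with earlier results of these data known, as were the members. Listed genes without a row of their own are not analysed here. Tables and plots used pandas 2.3.3 and matplotlib 3.10.9 in Python 3.11.15.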

Additional observations from a re-analysis of the deposited data

How the results depend on the processing

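Rasal2 kept its direction and its call under quantile normalization, centring, cyclic loess, the replicate block on either scaling, the filter on dim genes, both other variance models and the mean of rows (-0.595 to -0.25). Nf1, Rasa1 and Dab2ip lost their calls among these only with centring (0.145, 0.08 and 0.13), which left 0 members called higher and 3 lower. The block, filter, variance models and mean of rows (each member has 1 row) cannot change a difference on the same scaling. They change only its error and adjusted p. Rasal1 was not called after quantile normalization, alone or with the block (0.015), centring (0.02) or cyclic loess (0.0003). The uncalled difference of Rasa2 changed sign with quantile normalization, alone or with the block (-0.134), and cyclic loess (-0.145), and with centring Rasa2 and Rasa3 turned to called falls (-0.29 and -0.235). All genes called numbered 12372 on the deposited values, 80.8% of them higher in KrasD12, 9346 after quantile normalization, 48.0% higher, and 10231 with centring, 34.9% higher.

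With each sample left out in turn, on the deposited values or after quantile normalization, differences ran from 0.412 to 0.505 for Nf1, 0.37 to 0.482 for Rasa1, 0.292 to 0.51 for Dab2ip, -0.599 to -0.215 for Rasal2, -0.085 to 0.445 for Rasal1, -0.228 to 0.16 for Rasa2 and 0.005 to 0.13 for Rasa3. Members called higher numbered 0 to 2, members called lower 0 to 1 and all genes called 0 to 5783, with 1 residual degree of freedom and the lone sample of a group assumed to vary like the other group.

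The labels give the samples of the lines a shared replicate letter and no other link. The differences A minus B of the lines correlated at 0.0132 across genes. A value that low cannot show whether samples of the same letter were handled together. The replicate block gave 10260 calls over all genes and 9394 with quantile normalization, and 4 and 3 members called higher and 1 lower. It changed no call of a member on the same scaling.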
